A study of Arabidopsis thaliana with 11 samples.

Results

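5-methylcytosine (m5C) in nuclear tRNAs was compared between wild type buds and wild type seedlings of *Arabidopsis thaliana* (Columbia ecotype). Of the 11 libraries in the series 4 were wild type, 3 from seedlings 10 days after germination (experiment 1) and 1 from mixed floral buds (experiment 2). The other 7 were mutants, 1 library each, and are set beside the wild type columns below. They were *trm4a*, *trm4b-1*, *trdmt1*, *trdmt1 trm4b*, *nsun5-2* and *nop2a-2* seedlings of the same age in experiment 1, and *trm4b-2* buds in experiment 2. All 39 cytosines listed in the series had a level in both wild type columns and were matched by tRNA and structural position. The seedling level was the mean of 3 libraries as given by the authors, without its spread, and the bud level came from 1 library, so no replicate error was available and no difference was tested. The stage of the mixed buds was not given in the sources used here, and tissue and experiment cannot be told apart.

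Each value is the percentage of reads that kept a C at the cytosine after bisulfite, which turns unmethylated C into a base read as T. Levels are whole percents, and the depth behind each was unknown because the tables hold no read counts. A level is an average over all cells of a tissue, so a different mix of cell types and a different level within cells cannot be told apart. The tables hold no gene that marks a tissue, so the tissue labels could not be checked. The genotype labels could be checked at the sites lost in a mutant. C50 was at 0% or 1% in *trm4b-2* buds and in *trm4b-1* seedlings and at 87% to 96% in both wild type columns. C38 was at 0% or 1% in *trdmt1* seedlings and at 0% in *trdmt1 trm4b* double mutant seedlings, against 92% to 96% in both wild type columns. No measured site was lost in *trm4a*, *nsun5-2* or *nop2a-2*, so those labels could not be checked in this way.

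As background, many m5C sites of tRNAs are placed by 2 conserved enzyme families. TRDMT1, also called DNMT2, methylates C38 in the anticodon loop, on the 3′ side of the anticodon. TRM4, called NSUN2 in animals, methylates C48, C49 and C50, at the junction of the variable loop and the T stem, where the tRNA folds into its L shape. In human cells C72, in the acceptor stem, is methylated by NSUN6. Loss of these marks is known to make some tRNAs easier to cleave in animals. In *trdmt1 trm4b* double mutant seedlings some listed sites kept m5C, and the paper proposes a further enzyme for such sites.

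Consensus sequences are shown for the 11 tRNAs that held a site at least 20 points apart between the tissues or a site below 80% in both, Asp(GTC) among them. Gly(GCC) and Ser(TGA) were added after their values were seen, to be set beside Glu(TTC) and Ser(CGA). Each line is the authors' consensus of the nuclear loci, 5′ to 3′, and capitals mark the listed m5C sites in the order of their structural positions.
Thr(TGT), C49: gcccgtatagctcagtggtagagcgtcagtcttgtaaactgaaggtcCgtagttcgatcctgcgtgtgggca
Ala(CGC), C49: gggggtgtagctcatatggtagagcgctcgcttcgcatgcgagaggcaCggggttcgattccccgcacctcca
Ala(TGC), C49: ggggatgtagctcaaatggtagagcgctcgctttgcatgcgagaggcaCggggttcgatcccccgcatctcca
Ala(AGC), C49: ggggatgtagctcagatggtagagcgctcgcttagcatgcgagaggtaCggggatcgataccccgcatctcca
Val(CAC), C49: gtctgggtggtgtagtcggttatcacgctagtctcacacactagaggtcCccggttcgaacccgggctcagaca
Ser(CGA), C48: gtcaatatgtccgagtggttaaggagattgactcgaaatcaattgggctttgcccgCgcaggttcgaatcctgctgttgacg
Ser(TGA), C48: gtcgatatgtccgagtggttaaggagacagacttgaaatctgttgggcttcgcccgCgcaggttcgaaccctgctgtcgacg
Ile(AAT), C48: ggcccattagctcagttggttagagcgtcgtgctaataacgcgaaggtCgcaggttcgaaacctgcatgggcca
Lys(TTT), C48: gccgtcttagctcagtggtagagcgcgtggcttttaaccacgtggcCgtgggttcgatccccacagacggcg
Glu(TTC), C48, C49 and C50: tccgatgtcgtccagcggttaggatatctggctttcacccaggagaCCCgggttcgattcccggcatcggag
Gly(TCC), C48, C49 and C50: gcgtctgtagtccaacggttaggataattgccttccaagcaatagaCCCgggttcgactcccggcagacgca
Gly(GCC), C38, C48, C49 and C50: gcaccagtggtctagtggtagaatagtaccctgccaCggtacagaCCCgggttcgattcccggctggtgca
Asp(GTC), C38, C48, C49, C50 and C72: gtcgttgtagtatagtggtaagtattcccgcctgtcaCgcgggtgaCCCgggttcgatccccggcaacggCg

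Each consensus stood for several loci on TAIR10. Thr(TGT) stood for 8 loci, the first of them AT1G05980 on chromosome 1 from 1817400 to 1817471. Ala(CGC) stood for 7 loci, the first being AT1G64420 on chromosome 1 from 23933137 to 23933209. Ser(CGA) stood for 4 loci, the first being AT3G09585 on chromosome 3 from 2944612 to 2944693. Glu(TTC) stood for 11 loci, the first being AT1G09110 on chromosome 1 from 2939417 to 2939488. All 4 of these first loci are annotated as tRNA genes. Over the 24 tRNAs with a listed site, 256 of 257 loci are annotated in this way.

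Buds and seedlings carried m5C at similar levels at most listed sites. No listed site was below 23% in seedlings, and the methods set a minimum of 20% for a methylated site. A site methylated in buds alone is therefore not among them, so agreement is described only for sites methylated in seedlings. Of the 39 sites, 23 were higher in buds, 10 were lower and 6 were equal, and the median signed difference (buds minus seedlings) was 1 point. The middle of the absolute differences was narrow, with quartiles of 1 and 6.5 points around a median of 3. Levels of 90% or more were found at 20 sites in seedlings and 23 in buds, of which 17 were shared. Differences of 20 points or more were found at 3 sites (7.69% of those compared), 1 higher in buds (2.56%) and 2 lower (5.13%). At 10 points or more there were 7 sites (17.9%), 4 higher in buds and 3 lower.

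**Figure D1:**
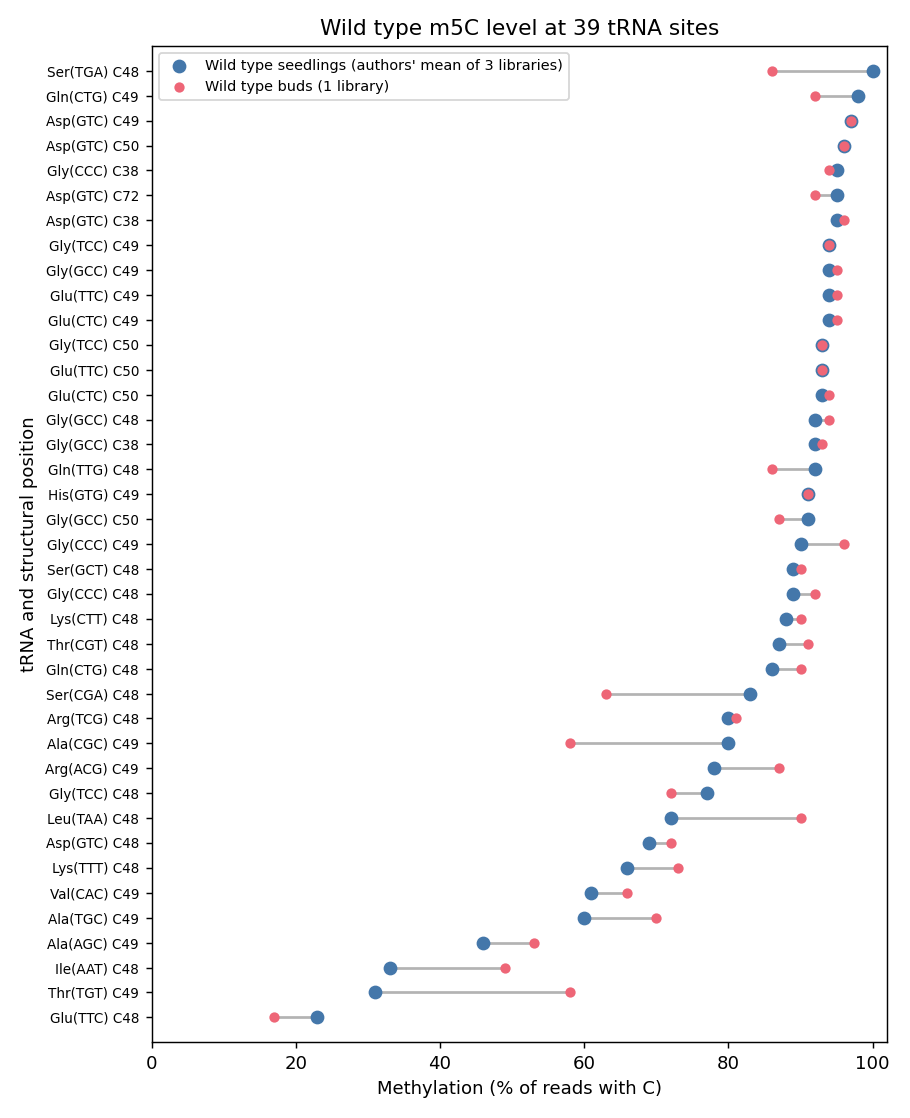
Methylation level (percent of reads with C, x axis) at each of the 39 listed tRNA sites (y axis), ordered by the seedling level. Blue points are wild type seedlings (the authors' mean of 3 libraries), red points are wild type buds (1 library), and grey lines join them. Most pairs lie within a few points of each other, and the longest lines are at Thr(TGT) C49 (31% and 58%), Ala(CGC) C49 (80% and 58%) and Ser(CGA) C48 (83% and 63%).

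The rank of the sites was largely kept. Across the 39 sites the Spearman rho between the tissues was 0.81 and the Pearson r 0.89. These coefficients describe sites of the same libraries, many of them in 1 tRNA, and have no p-value. Glu(TTC) C48 was the lowest site in both tissues, and without it rho was 0.80. Among the 10 lowest sites of each tissue 8 were shared, 80% of each list. The exceptions were Leu(TAA) C48 and Lys(TTT) C48 on the seedling list and Ala(CGC) C49 and Ser(CGA) C48 on the bud list. Within narrower ranges the order was looser. At the 26 sites at 80% or more in both tissues rho was 0.50, over levels between 80% and 100% where whole percents give many ties.

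The largest shift in rank was at Ser(TGA) C48, first among seedling levels at 100% and at rank 26.5 in buds with 86%. Gly(CCC) C49 went from rank 20 with 90% in seedlings to rank 3 with 96% in buds. Near the top, where levels crowd together, a few points cross many ranks. Gln(CTG) C49 was at rank 2 with 98% in seedlings and at rank 16 with 92% in buds.

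**Figure D2:**
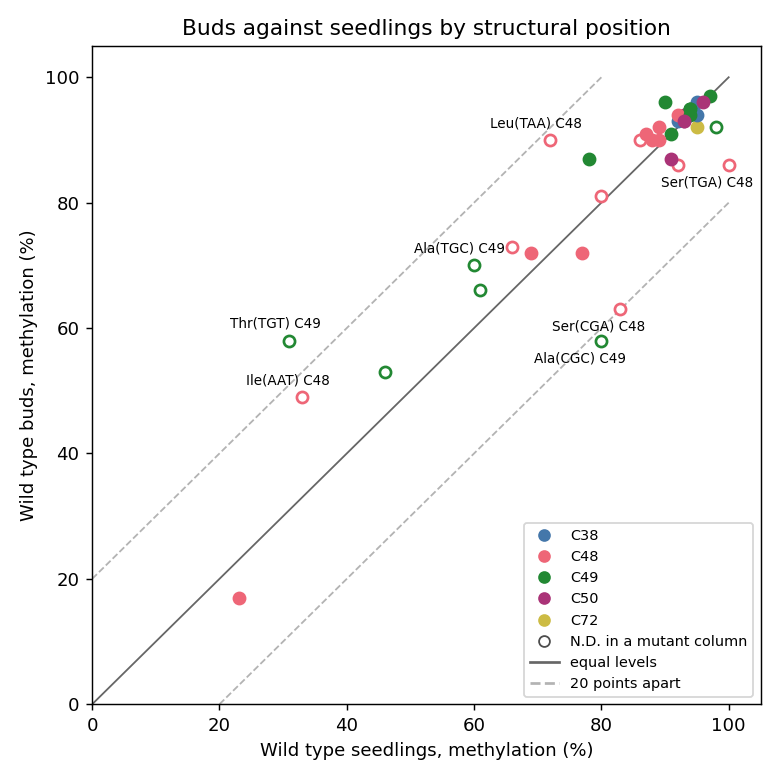
Methylation level in wild type buds (y axis, percent) against wild type seedlings (x axis, percent), 1 point per site, coloured by structural position. Open points had N.D. in at least 1 mutant column, the solid line marks equal levels and the dashed lines mark 20 points. The 7 labelled sites differed by 10 points or more, and all 7 are open points.

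By structural position, the 9 sites of C38, C50 and C72 were high in both tissues and differed by at most 4 points, and all 9 had a level in every column of the series. At C38, Asp(GTC) was at 95% in seedlings and 96% in buds. Gly(CCC) C38 was at 95% and 94%, and Gly(GCC) C38 at 92% and 93%. The 3 sites of the TRDMT1 position thus stood within 1 point. They were at 93%, 95% and 94% in *trm4b-2* buds, the other bud library, from a T-DNA mutant of the TRM4 homologue TRM4B. The 5 C50 sites were at 91% to 96% in seedlings and 87% to 96% in buds, with 3 of them equal and the widest gap at Gly(GCC) C50, at 91% and 87%. Asp(GTC) C72, the single site of the acceptor stem, was at 95% in seedlings and 92% in buds.

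C48 and C49 held all sites that differed by 10 points or more. The 16 C48 sites had a median of 84.5% in seedlings and 86% in buds, a median signed difference of 2 points and a median absolute difference of 4.5 points. The 14 C49 sites had medians of 90.5% and 91.5%, with 1 point and 5.5 points. At the sites with a level in every column, 8 at each position, the median absolute difference was 3 points at C48 and 1 point at C49, against 1 point at C38, 0 at C50 and 3 at C72. The largest at these sites were 6 points at C48 and 9 at C49. At C48 11 sites were higher in buds and 5 lower, and at C49 9 were higher, 2 lower and 3 equal. The base facing the site was the same throughout the stems. C49 faced a G at position 65 in 14 of 14 consensus sequences and C50 faced a G at position 64 in 5 of 5, so the letters of the pair did not separate high from low sites.

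At C49 levels were mostly higher in tRNAs with several listed sites, in both tissues. The number of listed sites comes from the same methylation data, and 5 of the 7 tRNAs with several sites share the letters gacCcgg around C49. In the 7 tRNAs with several sites C49 was at 90% to 98% in seedlings and 92% to 97% in buds. In the 7 tRNAs whose only listed site is C49 (the 3 alanine tRNAs, Arg(ACG), His(GTG), Thr(TGT) and Val(CAC)) it was at 31% to 91% in seedlings and 53% to 91% in buds. In seedlings the ranges overlapped only through His(GTG), at 91%, and in buds they did not overlap. A level in every column was held by 6 of the 7 C49 sites in tRNAs with several sites and by 2 of the other 7. At C48 no such gap was seen, with 23% to 92% in seedlings and 17% to 94% in buds in tRNAs with several sites, and 33% to 100% and 49% to 91% in those with 1 site.

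Over all positions the 22 sites in tRNAs with several sites differed by at most 6 points between the tissues. Their median absolute difference was 1 point. The 17 sites that are alone in their tRNA had a median absolute difference of 7 points, and the 7 sites at 10 points or more were all among them. Missing values moved with this split. Of the 22 sites 20 had a level in every column of the series, against 5 of the 17, and those 5 differed by 0 to 9 points.

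Missing values were counted over the 7 mutant columns of the series, each of 1 library. A cell without a level reads N.D. (not determined), and the methods set a minimum of 5 reads for a level. At the 25 sites with a level in all 7, buds lay a median of 1 point from seedlings in either direction and at most 9 points, at Arg(ACG) C49 with 78% in seedlings and 87% in buds. At the 8 sites with N.D. in 5 or 6 mutant columns, the median was 15 points and the largest 22 points. Of the 7 sites at 10 points or more 6 were among these 8, the exception being Thr(TGT) C49 with 1 N.D. The part of low read numbers in these differences was not tested.

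**Figure D3:**
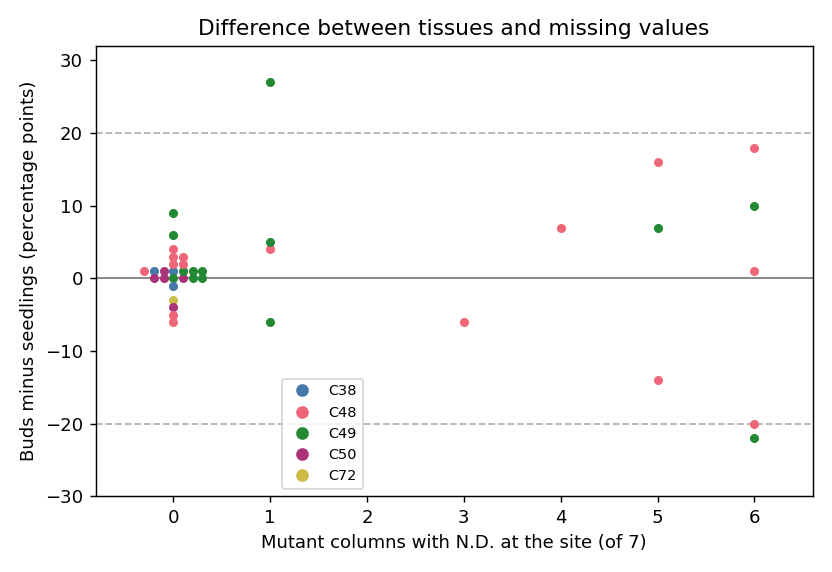
Difference in methylation, wild type buds minus wild type seedlings (y axis, percentage points), against the number of the 7 mutant columns with N.D. at that site (x axis), 1 point per site, coloured by structural position. Points with equal values are spread sideways, and dashed lines mark 20 points. Sites with no N.D. lie between -6 and 9 points, and sites with 5 or 6 N.D. between -22 and 18 points.

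The 3 sites furthest apart were in 3 families. Thr(TGT) C49 was at 31% in wild type seedlings and 58% in wild type buds. In single seedling libraries of other genotypes it was at 60% in *trm4a*, 60% in *trdmt1* and 40% in *nsun5-2*, and it had no level in *nop2a-2*. The bud level was therefore inside the range of the seedling columns, of which the wild type mean was the lowest. Ala(CGC) C49 was at 80% in seedlings and 58% in buds, and Ser(CGA) C48 at 83% and 63%. Neither had a level in any of those 4 mutant columns, so no other seedling value with intact TRM4B could be set beside them.

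The sites between 10 and 20 points apart were Leu(TAA) C48, Ile(AAT) C48, Ser(TGA) C48 and Ala(TGC) C49. Leu(TAA) C48 was at 72% in seedlings and 90% in buds. Ile(AAT) C48 was at 33% and 49%, with 25% in *trdmt1 trm4b* double mutant seedlings and 38% in *trm4b-2* buds. The other 5 mutant columns had N.D. at this site. Both bud levels lay above both seedling levels, but the columns of each tissue mix wild type with a mutant. Ser(TGA) C48 was at 100% and 86%. Ala(TGC) C49 was at 60% and 70%. On the log2 odds scale, which widens differences near 100%, Ser(TGA) C48 differed by -5.02, with the seedling level held 0.5 points inside the limit. Next came Gln(CTG) C49 with -2.09, at 98% in seedlings and 92% in buds, and then Leu(TAA) C48 with 1.81, Thr(TGT) C49 with 1.62 and Ala(CGC) C49 with -1.53.

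By tRNA family, the aspartate, glutamate and glycine tRNAs kept their levels most closely. The 5 sites of Asp(GTC), the aspartate acceptor, differed by -3 to 3 points. The 5 glutamate sites differed by -6 to 1 points and the 10 glycine sites by -5 to 6 points. All 20 had a level in every column. Histidine had 1 site, His(GTG) C49, which was equal. The 3 glutamine sites differed by -6 to 4 points, with Gln(TTG) C48 at 92% in seedlings and 86% in buds.

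The alanine, threonine and serine families had the widest ranges of differences. The members did not share a direction in alanine and serine, and both threonine sites were higher in buds. In alanine, Ala(CGC) was lower in buds by 22 points, while Ala(AGC) was at 46% in seedlings and 53% in buds and Ala(TGC) was higher by 10 points. The 3 alanine tRNAs covered 34 points at C49 in seedlings and 17 points in buds, and their order differed, with Ala(CGC) highest in seedlings and Ala(TGC) highest in buds. In serine, Ser(CGA) and Ser(TGA) were lower in buds by 20 and 14 points, and Ser(GCT) C48, with a level in every column, was at 89% and 90%. Leucine, the other family with a long variable arm, had Leu(TAA) C48 alone, higher by 18 points. In threonine, Thr(CGT) C48 was at 87% and 91%, against the 27 points of Thr(TGT) C49.

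The remaining families were higher in buds at each of their sites. Arg(ACG) C49 differed by 9 points and Arg(TCG) C48 by 1 point, at 80% in seedlings and 81% in buds. Lys(TTT) C48 was at 66% and 73%, and Lys(CTT) C48 at 88% and 90%. Val(CAC) C49 was at 61% in seedlings and 66% in buds, with 40%, 43% and 83% in *trm4a*, *trdmt1* and *nsun5-2* seedlings.

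The tRNAs with several sites are given in full here, apart from the sites given above. Asp(GTC) was at 97% in both tissues at C49 and at 96% in both at C50. In Glu(CTC), C49 was at 94% in seedlings and 95% in buds, and C50 at 93% and 94%. In Glu(TTC), C49 was at 94% and 95%, and C50 at 93% in both. The glutamate tRNAs were thus within 1 point at all sites but C48 of Glu(TTC).

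In Gly(GCC), the most heavily listed glycine tRNA, C48 was at 92% in seedlings and 94% in buds, and C49 at 94% and 95%. In Gly(TCC), C49 was at 94% in both tissues and C50 at 93% in both. Gly(CCC) C48 was at 89% and 92%. The remaining glycine sites, Gly(TCC) C48 apart, were no lower than 87% in either tissue. In the glutamine acceptor Gln(CTG), C48 was at 86% and 90%.

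Within a tRNA the pattern across positions was kept between the tissues. C49 was above C48 in each of the 6 tRNAs that list both, by 28 points in seedlings and 25 in buds for Asp(GTC), 71 and 78 for Glu(TTC), and 17 and 22 for Gly(TCC). The step was small in Gly(CCC), with 1 and 4 points, and in Gly(GCC), with 2 and 1. In Gln(CTG) it was 12 points in seedlings and 2 in buds. C50 was below C49 by 1 to 3 points in seedlings and 1 to 8 in buds in the 5 tRNAs that list both. The lowest site of each of the 7 tRNAs was the same in both tissues, C48 in 5 of them and C50 in Glu(CTC) and Gly(GCC).

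Partly methylated sites, below 80% in both tissues, numbered 9, with 5 at C48 and 4 at C49 and none at C38, C50 or C72. Their medians were 60% in seedlings and 66% in buds, 7 were higher in buds and 2 lower, and rho among them was 0.88. They were Glu(TTC) C48 at 23% in seedlings and 17% in buds, Thr(TGT) C49, Ile(AAT) C48, Ala(AGC) C49, Ala(TGC) C49, Val(CAC) C49, Lys(TTT) C48, Asp(GTC) C48 at 69% and 72%, and Gly(TCC) C48 at 77% and 72%. In 6 of the 9 tRNAs it was the only listed site. A further 4 sites were below 80% in 1 tissue alone, Leu(TAA) C48 and Arg(ACG) C49 in seedlings and Ala(CGC) C49 and Ser(CGA) C48 in buds. With these 4 included, rho over the 13 sites was 0.56. The 9 sites were picked by the same 2 levels that rho compares, so the rho of 0.88 leaves out sites that crossed 80%.

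Of the 9 sites 3 had a level in every column, and they stayed partial throughout the columns with intact TRM4B. Asp(GTC) C48 was at 72% in *trdmt1*, 74% in *trm4a*, 62% in *nop2a-2* and 63% in *nsun5-2* seedlings, around both wild type levels. Gly(TCC) C48 was at 75%, 74%, 73% and 72%. Glu(TTC) C48 was at 24%, 20%, 22% and 24%, and the bud level of 17% was below them all. It was the single wild type level below 20%, the minimum the methods set for a methylated site.

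**Figure D4:**
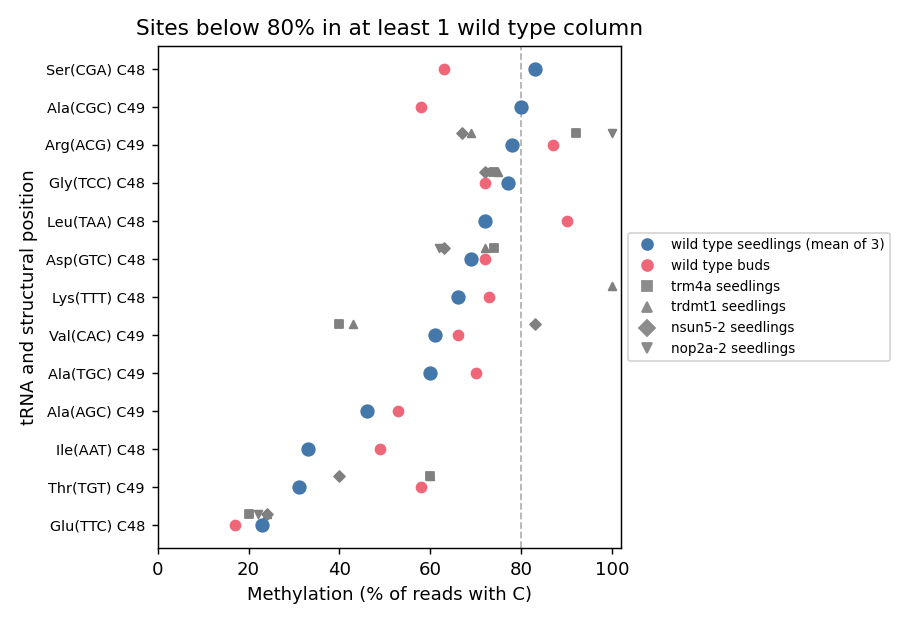
Methylation level (x axis, percent) at the 13 sites below 80% in at least 1 wild type column (y axis). Blue points are wild type seedlings (the authors' mean of 3 libraries), red points are wild type buds (1 library), and grey symbols, drawn slightly higher, are single seedling libraries of *trm4a*, *trdmt1*, *nsun5-2* and *nop2a-2* where they had a level. The dashed line marks 80%. At Thr(TGT) C49 the grey symbols for *trm4a* and *trdmt1* coincide at 60%, beside the bud level of 58%.

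The *trm4b* alleles give a further view of these sites. A level of 5% or less was found at 15 of 32 measured sites in *trm4b-1* seedlings (46.9%) and 16 of 36 in *trm4b-2* buds (44.4%). Among the partly methylated sites 6 of 6 measured in *trm4b-1* and 7 of 9 in *trm4b-2* were at 5% or less. The exceptions in *trm4b-2* were Ile(AAT) C48 at 38% and Lys(TTT) C48 at 20%, and neither site had a level in *trm4b-1*. Among the 17 sites of C48 and C49 at 80% or more in both wild type columns, 4 of 16 measured were that low in *trm4b-1* and 3 of 16 in *trm4b-2*. The cut of 5% leaves out sites that fell without reaching it. The counts above were not tested, since sites of 1 library are not replicates.

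Sites with the same neighbouring letters could stand far apart in both tissues. Glu(TTC), Gly(TCC) and Gly(GCC) share the letters agaCccg around C48, yet C48 was at 23%, 77% and 92% in seedlings and at 17%, 72% and 94% in buds. Glu(TTC) and Gly(GCC) are identical over 19 bases from C48 and differ at 6 of the 26 bases from there to the 3′ end. Gly(TCC) matches both over 11 bases from C48, and its next letter differs as C against T, which bisulfite makes alike. Reads of this shared stretch alone could not be told apart among them, and the part of such reads was not tested. At C49, by contrast, the letters gacCcgg were shared by 5 tRNAs, all at 94% to 97% in both tissues. At C50 the letters around the site were also shared by 5 tRNAs, at 91% to 96% in seedlings and 87% to 96% in buds. Ser(CGA) and Ser(TGA) share the 3 letters on either side of C48, as the lines above show, and differ at 2 of the last 26 bases, and stood at 83% and 100% in seedlings and 63% and 86% in buds. Ala(CGC) and Ala(TGC) likewise share them at C49, with 80% and 60% in seedlings and 58% and 70% in buds. In the serine pair and in this alanine pair, the 2 letters that differ over the last 26 bases are C against T. Bisulfite makes such letters alike, and the mapping references had each C written as T. Reads of this stretch alone therefore could not be told apart within a pair. All 4 sites had N.D. in 5 or 6 mutant columns, and the part of shared reads was not tested.

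With no spread at hand for the 3 wild type seedling libraries, the bud column was set beside the 4 mutant seedling columns that keep TRM4B. These were *trm4a* (a paralogue of TRM4B), *nsun5-2* and *nop2a-2* (their yeast relatives act on ribosomal RNA), and *trdmt1* outside C38. Each was 1 library of its own genotype, and all were compared with the same wild type mean, so the values are set side by side only. At the 25 sites with a level in every column, the median absolute difference from wild type seedlings was 1 point for buds, 1 for *trm4a*, 2 for *nsun5-2* and 4 for *nop2a-2*. For *trdmt1*, at 22 sites, it was 2 points, against 1.5 for buds. Buds ranged from -6 to 9 points, *trm4a* from -7 to 14, *trdmt1* from -11 to 3, *nsun5-2* from -25 to 10 and *nop2a-2* from -15 to 22. Differences of 10 points or more were found at 0 of these sites in buds, 1 in *trm4a*, 1 in *trdmt1*, 4 in *nsun5-2* and 5 in *nop2a-2*. In *nsun5-2* they lay in Arg(ACG) and Gly(CCC), and in *nop2a-2* in these and Lys(CTT). The read depth of each library was unknown, so these counts do not rank the libraries by likeness to wild type seedlings. The 7 bud sites at 10 points or more all had an N.D. and fall outside this set. At all sites each library measured, buds had 1 such site beside 5 in each of *trm4a*, *trdmt1* and *nsun5-2*. Beside *nop2a-2*, with 6, buds had 0.

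At those 25 sites the bud level lay inside the range of the 5 seedling columns (4 at C38) at 18 sites and outside at 7 (28%), by 1 point at 5 of them. Those 5 lay above the range by the smallest step that whole percents allow, and were Asp(GTC) C38, Glu(CTC) C49, Glu(CTC) C50, Gly(GCC) C49 and Thr(CGT) C48. The 2 sites below it were Glu(TTC) C48, at 17% against 20% to 24%, and Asp(GTC) C72, at 92% against 94% to 95%. At Asp(GTC) C72 *trm4b-2* buds were at 89%, the lowest of the 9 columns, while *trm4b-1* seedlings were at 91% and the double mutant seedlings at 94%. The bud and seedling ranges at this site therefore overlapped by the *trm4b-1* column alone.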

How the data were processed

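The authors cut tRNA-sized RNA from gels, converted it with bisulfite and mapped the cleaned reads with CLC Genomics Workbench onto 100 consensus tRNA sequences (loci on TAIR10) in which each C was written as T. The deposited values are percent methylation, rounded to whole percents, with a minimum of 5 reads. With few reads 1 read moves a level by many points, collapsed consensus sequences hide differences between loci, and other cytosines that resist bisulfite read as m5C.

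Columns were assigned by the genotype in their heading, the seedling wild type column being a mean of 3 samples and the *nop2a-2* column carrying the allele's other name. Differences, medians and rank coefficients were computed in Python 3.11.15 with numpy 2.4.6 and scipy 1.17.1, checked on simulated levels, and plotted with matplotlib 3.10.9. Structural positions were counted from the 3′ end, or from the anticodon for C38, and the consensus base was C at 39 of 39 sites. All 257 loci matched RefSeq (TAIR10.1), 256 of them as tRNA genes. By rule, any listed site could be named, with full values for sites 10 points or more apart, below 80% in either column, at C38 or C72, or in tRNAs with several sites. The members, lists and thresholds were chosen with earlier results of these data known. The alternatives were other thresholds, scales, summaries and the fully measured sites alone.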

Additional observations from a re-analysis of the deposited data

How the results depend on the processing

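No replicate could be left out, since the seedling column is a mean and the bud column 1 library. No paired analysis was possible because the tables hold no single wild type seedling library. Of 47 alternative settings 28 stayed within 1.5 times or 1 point of the reported value, as did rho without Glu(TTC) C48, added after the data were seen. Many of the 28 could not have moved. A mean equals a median in groups of 1 or 2 sites, and some groups were fully measured from the start. The 3 sites at 20 points became 7 at 10 points, 5 at 15 points, 0 at 30 points, 7 at 1 on the log2 odds scale and 0 at fully measured sites. The median absolute difference of 3 points became 5.59 as a mean and 1 at fully measured sites, and rho became 0.50 at sites at 80% or more in both. The 9 partly methylated sites became 5 below 70% and 3 at fully measured sites. As means, the signed differences were 0.63 points at C48, 2.79 at C49, -1.67 in alanine (median 7), -2.67 in glutamine (-6) and -0.60 in glutamate (1), so alanine and glutamate turned sign with Ala(CGC) C49 and Glu(TTC) C48. At fully measured sites alone arginine had 9 points (5), lysine 2 (4.5), serine 1 (-14) and threonine 4 (15.5), each from 1 site, and 5 families had no such site. Read depth per site, unknown here, limits every difference above.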
